A study of Mus musculus with 2 samples.

Results

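The collagen genes were followed through single dermal cells of healed small skin wounds. All genes whose symbol is Col, a number, the letter a and a number were taken, which gave 44 of the 27998 genes in the count tables. By the structure of the proteins they form 11 fibrillar, 9 FACIT, 9 basement membrane, 9 network and 4 transmembrane members, and 2 genes, Col26a1 and Col28a1, belong to none of these groups. Control mice carried SM22rtTA, tetO-Cre and R26-Tomato, and SM22-SmoM2 mice carried SM22rtTA, tetO-Cre and R26-SmoM2/Tomato. In both genotypes the SM22 promoter, active in smooth muscle and in contractile wound cells, drives rtTA, which switches on Cre under doxycycline. Cre then activates the Tomato reporter at the Rosa26 locus. In the second genotype it also turns on SmoM2, a Smoothened mutant that signals without ligand and so keeps the Hedgehog (Hh) pathway active. Mice of both groups were 4 to 5 weeks old, received doxycycline (20 g/kg) from day 1 after wounding, and gave dermis 3 days after wound closure. Tomato+ cells were sorted and sequenced as 1 library per group, each pooled from the wounds of several mice. With 1 library per group no difference between the groups could be tested, and all intervals below are 95% intervals that cover counting error only.

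Collagens are proteins of 3 chains wound around each other, and glycine at the start of each Gly-X-Y triplet allows this triple helix to close. Fibrillar collagens (types I, II, III, V, XI, XXIV and XXVII) form the ropes that give dermis its strength, and FACIT collagens sit on the surface of those fibrils. Type IV forms the sheet of basement membranes, types VII, XV and XVIII are found at or next to it, types VI and VIII form filaments and networks, and transmembrane collagens span the cell surface. In skin, fibroblasts are the main source of fibrillar collagen, and scars are known for dense fibrillar collagen.

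The repeat that defines the family is shown here for 4 members, because the groups differ in how long it runs and because Col26a1 is one of the genes that differed most between the libraries. Each sequence holds 10 successive codon triplets of the mouse coding sequence (GRCm38, GENCODE annotation vM21), from the start of the longest unbroken run of the gene, with the GG of each glycine codon in capitals.
Col1a1: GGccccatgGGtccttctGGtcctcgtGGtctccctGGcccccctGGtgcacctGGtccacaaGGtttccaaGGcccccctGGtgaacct
Col3a1: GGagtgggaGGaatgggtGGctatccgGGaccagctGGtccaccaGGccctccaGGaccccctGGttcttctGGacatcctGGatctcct
Col4a1: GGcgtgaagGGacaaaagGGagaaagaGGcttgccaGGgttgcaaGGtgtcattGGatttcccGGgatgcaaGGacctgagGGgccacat
Col26a1: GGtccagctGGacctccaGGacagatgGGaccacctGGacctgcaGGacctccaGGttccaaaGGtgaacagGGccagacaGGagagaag
In the 11 fibrillar members the longest unbroken run held 216 to 344 triplets, with a median of 338. Type I and type III chains were at the upper end, with 338 triplets in Col1a1 and 344 in Col3a1. The helix of the basement membrane members was broken into 11 to 27 runs, and their longest run held 30 to 75 triplets. The Col4a1 coding sequence, for example, had 22 runs with at most 40 triplets in one of them. The FACIT members reached 32 to 113 triplets in their longest run, the network members 37 to 87, and the transmembrane members 40 to 55. Col26a1 had the shortest longest run of all 44 members, 23 triplets in a coding sequence of 440 codons. All groups therefore carried the repeat, and its length separated the fibrillar members from every other group.

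Of 2878 control and 1802 SM22-SmoM2 barcodes, 2856 and 1792 were kept, with 30103855 and 17814222 unique molecular identifiers (UMIs, each 1 captured transcript) and a median of 8607.5 and 8837.5 UMIs per cell. Clusters built without the collagen genes were named from marker genes as fibroblast-like, muscle-like, endothelial-like, Schwann-like, immune-like and keratinocyte-like, and are called by those cell types in what follows. The muscle list (Myh11, Rgs5, Notch3, Des, Mcam, Kcnj8, Abcc9 and Cnn1) was one for mural cells, which lie in vessel walls. Muscle cells therefore stands for mural-like cells here. Fibroblasts were 1091 control cells (38.2%) and 1098 SM22-SmoM2 cells (61.3%). The 8 fibroblast markers, among them Pdgfra, Lum and Dcn, were all detected in the fibroblasts of both libraries and summed to 17178 counts per 1000000 UMIs (CPM) in control cells and 7279 CPM in those of SM22-SmoM2, against 202 to 1447 CPM in muscle, endothelial, Schwann and immune cells. The SM22-SmoM2 fibroblasts included 46 dermal-papilla-like (DP-like) cells, a class with 13 of 13 dermal papilla markers raised that had no control cell. Ptch1, a direct target of Hh signaling, stood at 12.2 CPM in control fibroblasts and 147 CPM in those of SM22-SmoM2, and Gli1, another target, at 6.02 and 33.2 CPM, so the libraries followed their labels. Both pools held cells of male and female mice. Among fibroblasts with a call, 645 of the control cells were male and 220 female, and 815 of the SM22-SmoM2 cells were male and 48 female.

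Fibroblasts held most collagen transcripts counted in the sorted Tomato+ cells of each library. Collagen genes took 6.99% of all UMIs in control fibroblasts and 4.83% in SM22-SmoM2 fibroblasts, 1.37% and 1.46% in muscle cells, 1.34% and 1.23% in Schwann cells, and 0.453% and 0.472% in endothelial cells. Of all Col1a1 UMIs in a library, 93.6% of control and 95.4% of SM22-SmoM2 UMIs lay in fibroblasts. At least 1 UMI was found for 41 of the 44 members in fibroblasts, and 33 members reached 50 UMIs in at least 1 cell type. The other 11 (Col4a3, Col4a4, Col4a6, Col6a4, Col9a1, Col9a2, Col10a1, Col11a2, Col17a1, Col19a1 and Col22a1) were too rarely counted to be compared. Immune cells held 0.514% and 0.928% collagen, but their median cell held only 0.122% and 0.0893% while single immune cells reached 4.72% and 5.80%, so a few cells carried most of it. Fibroblast markers summed to 1037 and 1447 CPM in immune cells, and their part in the collagen of these cells was not tested.

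**Figure D1:**
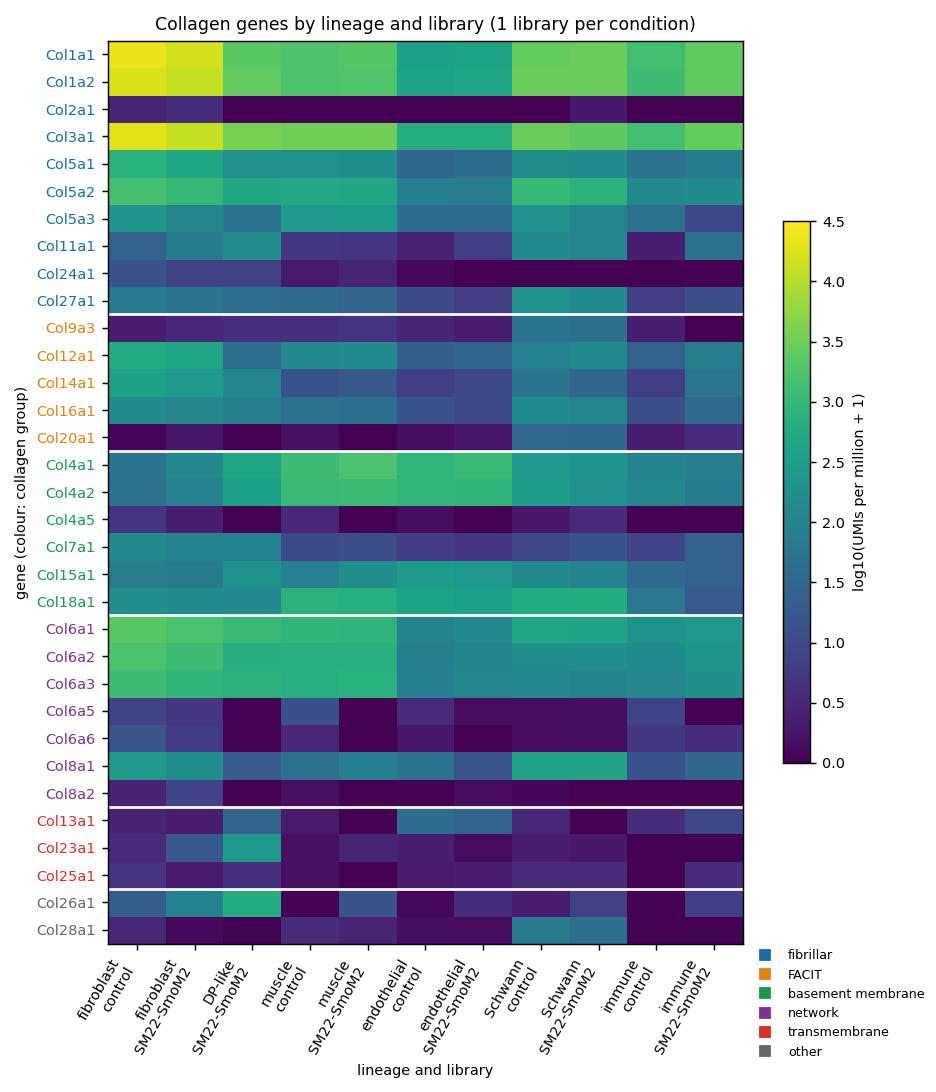
Level of the 33 collagen genes with at least 50 UMIs in some cell type (vertical axis, coloured by collagen group) in each cell type and library (horizontal axis), as the log10 of CPM plus 1. Fibroblast columns are brightest for Col1a1, Col1a2 and Col3a1, while Col4a1 and Col4a2 are brightest in muscle and endothelial columns (1196 and 921 CPM for Col4a1 in control, against 50.4 CPM in fibroblasts).

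Basement membrane members took a larger share of collagen in every other cell type of the control library than in its fibroblasts. They made up 0.703% and 1.09% of collagen UMIs in control and SM22-SmoM2 fibroblasts, 55.9% and 55.4% in endothelial cells, 23.3% and 25.7% in muscle cells, and 10.1% and 9.42% in Schwann cells. In immune cells they made up 6.53% and 2.42%, and in control keratinocytes 4.06%, but their level there (336, 224 and 321 CPM) was under that of fibroblasts (491 and 528 CPM). In each library every cell type was set against the fibroblasts of the same library, and a gene was called when it passed a 2-fold difference in both libraries with at least 50 UMIs in each comparison. In endothelial cells 5 of 25 collagen genes were higher, where 14.4% of all 10613 genes were, and 20 were lower, where 12.3% of all genes were. The 5 were Col4a1, Col4a2, Col13a1, Col15a1 and Col18a1. Col4a1 reached 921 CPM (control) and 1121 CPM (SM22-SmoM2) in endothelial cells, a log2 ratio over fibroblasts of 4.19 (4.08 to 4.30) and 3.19 (3.10 to 3.28). Col13a1, a transmembrane collagen of cell junctions, stood at 36.9 and 25.6 CPM in endothelial cells (303 and 61 UMIs), where fibroblasts had 25 and 15 UMIs. All 25 collagen genes that could be compared thus differed past 2-fold between endothelial cells and fibroblasts. The lower genes were far over the share of all genes, and the higher genes were nearer to it.

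In muscle cells 3 of 22 collagen genes were higher than in fibroblasts of both libraries, Col4a1, Col4a2 and Col18a1 (7.61% of all genes), and 13 were lower (7.35%). Col18a1, whose C-terminal fragment is endostatin, stood at 790 and 679 CPM in muscle cells against 170 and 145 CPM in fibroblasts. In Schwann cells 6 of 27 were higher, Col4a2, Col9a3, Col18a1, Col20a1, Col27a1 and Col28a1 (9.73% of all genes), and 14 were lower (10.1%). Col28a1 was at 67.8 and 43.6 CPM in Schwann cells, which held 88.6% of its control and 93.6% of its SM22-SmoM2 UMIs. Col20a1, a FACIT member, was at 34.9 and 31.7 CPM there, against 3 UMIs in all control fibroblasts, a log2 ratio of 7.36 (5.79 to 9.65) in that library. Col9a3, which encodes a chain of the FACIT collagen type IX, was at 51.9 and 44.6 CPM in Schwann cells and at 1.27 and 2.16 CPM in fibroblasts, although Col9a1 and Col9a2, which encode its partner chains, did not reach 50 UMIs in any cell type. In immune cells 0 of 22 were higher (7.24%) and 18 were lower (17.8%). Col4a2 and Col18a1 were thus higher in muscle, endothelial and Schwann cells, and the 3 genes higher in muscle cells were all among the 5 of endothelial cells.

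Chains of 1 collagen type were not counted in a fixed proportion. Type V chains gave 1.99 and 2.08 UMIs of Col5a2 per UMI of Col5a1 in control and SM22-SmoM2 fibroblasts, and 6.26 (5.81 to 6.76) and 5.19 in Schwann cells. Type VI chains gave 1.27 and 1.31 UMIs of Col6a1 per UMI of Col6a2 in fibroblasts, and 2.80 (2.58 to 3.04) and 2.36 (2.09 to 2.68) in Schwann cells. In both pairs the values of Schwann cells lay above the fibroblast values of the same library. Type III against type I was 0.862 UMIs of Col3a1 per UMI of Col1a1 in control and 0.815 in SM22-SmoM2 fibroblasts, but 1.91 and 1.60 in muscle cells and 1.72 and 1.60 in endothelial cells. Schwann cells were nearer to fibroblasts, at 1.07 (1.04 to 1.09) in control and 0.835 (0.804 to 0.868) in SM22-SmoM2. UMI ratios of different genes were used only to compare cell types and libraries, and not as ratios of the transcripts present in cells.

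In muscle, endothelial and Schwann cells few collagen genes differed past 2-fold between the libraries, and the same held for all genes. With a call at 2-fold and 50 UMIs over both libraries, muscle cells had 0 higher of 17 (0.894% of 5818 genes) and 0 lower (3.39%), Schwann cells had 0 higher of 23 (1.15% of 8614 genes) and 0 lower (1.88%), and endothelial cells had 0 higher of 20 (0.693% of 9952 genes) and 1 lower (1.51%). The 1 was Col8a1, which encodes a chain of the network collagen of vessel walls, at 51.0 CPM in endothelial cells of the control and 14.3 CPM in those of the SM22-SmoM2 library (log2 ratio -1.83, -2.38 to -1.33). In immune cells, whose collagen came from few cells, 2 of 10 were higher (2.78% of 2661 genes), Col1a2 and Col3a1, and 0 were lower (6.35%). The collagen total of muscle, endothelial and Schwann cells differed by 0.09, 0.06 and -0.12 on the log2 scale, and that of immune cells by 0.85 (0.78 to 0.92).

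In fibroblasts the question was how the collagen genes differed between the SM22-SmoM2 and the control library. Most collagen genes had a lower CPM in SM22-SmoM2 fibroblasts, and a small set had more. Of 29 collagen genes with at least 50 UMIs, 22 had a log2 ratio of SM22-SmoM2 over control under 0, where 56.0% of all 11525 genes did, and their median was -0.44, against -0.06 over all genes. Past 2-fold, 5 were higher (5.02% of all genes) and 3 were lower (4.89%). Past 1.5-fold, 6 were higher (11.8%) and 9 were lower (12.3%). At either fold the higher and the lower genes each made up a larger share of the collagen genes than of all genes.

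Among fibrillar members, the chains of types I, III and V were all lower when all SM22-SmoM2 fibroblasts were set against all control fibroblasts. Col1a1 (chr11:94936224-94953042, plus strand), the main chain of type I collagen, was at 23226 CPM (23146 to 23305) in fibroblasts of control and 15655 CPM in those of SM22-SmoM2, a log2 ratio of -0.57 (-0.58 to -0.56). Col1a2, its partner chain, was at 17112 and 12684 CPM (-0.43, -0.44 to -0.42). Col3a1 (chr1:45311538-45349706, plus strand), the chain of type III collagen that is abundant in young wounds, was at 20031 and 12757 CPM (-0.65, -0.66 to -0.64). Each of the 3 differed by less than 2-fold. The type V chains, which set fibril width, had log2 ratios of -0.60 (Col5a1), -0.54 (Col5a2) and -0.89 (Col5a3). Col24a1 and Col27a1, which encode fibrillar chains with shorter helices, had log2 ratios of -0.82 and -0.39. Over sub-clusters 0 and 13 together, whose cells came from both libraries, some of these signs turned. The log2 ratio there was 0.0038 for Col1a2, 0.17 for Col5a1, 0.49 for Col5a3 and 0.098 for Col27a1. It stayed under 0 for Col1a1 (-0.16), Col3a1 (-0.03), Col5a2 (-0.02) and Col24a1 (-0.52). The fibrillar total was 62902 CPM in control fibroblasts and 42842 CPM in those of SM22-SmoM2 (-0.55, -0.56 to -0.55), and the Col3a1 to Col1a1 ratio differed by -0.08 (-0.09 to -0.07) on the log2 scale. The sign of this ratio difference turned over sub-clusters 0 and 13 together. In control and SM22-SmoM2 cells the ratio was 0.723 and 0.716 in sub-cluster 0, and 0.763 and 0.912 in sub-cluster 13. Within cells of 1 sex the fibrillar total differed by -0.48 in male cells and by -1.35 in female cells, of which the SM22-SmoM2 library had 48. In female cells 9 collagen genes in place of 3 were lower past 2-fold, a count given without the share of all genes.

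Col11a1 (chr3:114030540-114220718, plus strand) was the exception among fibrillar members. This gene encodes a chain of type XI collagen, known from cartilage and from activated fibroblasts, and stood at 24.4 CPM (345 UMIs) in control fibroblasts and 69.4 CPM (866 UMIs) in those of SM22-SmoM2, a log2 ratio of 1.51 (1.32 to 1.69). Col2a1, the cartilage collagen, had 27 and 35 UMIs and an interval that included 0 (0.55, -0.21 to 1.33). Both counts came from few cells. Of the 27, 26 lay in the 62 control cells of sub-cluster 6. No SM22-SmoM2 sub-cluster with at least 30 cells held more than 2, so most of the 35 lay in smaller ones.

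Most FACIT and network members were also lower in SM22-SmoM2 fibroblasts. Col12a1, Col14a1 and Col16a1, which bind fibril surfaces, had log2 ratios of -0.41, -0.50 and -0.38. The type VI chains Col6a1, Col6a2 and Col6a3, whose microfilaments surround cells, had log2 ratios of -0.40, -0.44 and -0.45, and their intervals spanned at most -0.49 to -0.37. Of the rarer type VI chains, Col6a6 was at 14.6 CPM (206 UMIs) and 5.21 CPM (65 UMIs), a log2 ratio of -1.49 (-1.91 to -1.08), and Col6a5 had 106 and 53 UMIs (-0.82, -1.33 to -0.33). Col8a1 was also lower (-0.61, -0.69 to -0.53). In sub-clusters 0 and 13, whose cells came from both libraries, the sign turned to 1.69 for Col6a6, 0.39 for Col6a5, 0.29 for Col12a1, 0.38 for Col14a1 and 0.09 for Col8a1. Col8a2, the other chain of type VIII, went the opposite way, with 25 UMIs (1.77 CPM) in control and 88 UMIs (7.05 CPM) in SM22-SmoM2 fibroblasts (1.99, 1.34 to 2.70). Of the 88, 48 lay in the 224 SM22-SmoM2 cells of sub-cluster 4, at 18.4 CPM against 14.7 CPM (5 UMIs) in its 35 control cells. In sub-clusters 0 and 13 the log2 ratio of Col8a2 was 1.12, from fewer UMIs than the 50 needed for a call.

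The basement membrane members did not move as 1 group. Col4a1 and Col4a2, the chains found in nearly all basement membranes, were higher in SM22-SmoM2 fibroblasts, at 50.4 and 123 CPM for Col4a1 (1.28, 1.15 to 1.41) and at 48.7 and 91.8 CPM for Col4a2 (0.91, 0.78 to 1.05). They lie head to head on chromosome 8, Col4a1 on the minus strand (chr8:11198423-11312826) and Col4a2 on the plus strand (chr8:11312805-11449287), and their annotated first exons overlap by 22 bases. Each also overlaps an antisense gene that has its own row of counts. Strand use in the counting is not given in the sources used here, and the same holds for all 18 members that overlap a gene on the opposite strand. Col4a5, a chain of specialised basement membranes, had 53 and 17 UMIs (-1.46, -2.34 to -0.65). Col7a1, which anchors the epidermal basement membrane to the dermis, was lower (-0.52, -0.62 to -0.41), and Col15a1 and Col18a1 were close to control (-0.17, -0.30 to -0.04, and -0.23, -0.32 to -0.14). The group total was 491 and 528 CPM (0.10, 0.05 to 0.15), and its sign turned when cells were weighted equally (-0.033), thinned to equal depth (-0.037) or taken from the sub-clusters with 50 or more cells of each library (-0.29). The UMIs of Col4a1 per UMI of Col4a2 were higher in the SM22-SmoM2 library in all 4 larger cell types, from 1.03 to 1.34 in fibroblasts, 1.08 to 1.43 in muscle cells, 1.02 to 1.26 in endothelial cells and 0.865 to 1.26 in Schwann cells. This ratio therefore differed between the libraries also outside fibroblasts, and the part of the library in it was not tested.

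The largest ratios were those of Col23a1 and Col26a1. Col23a1 (chr11:51289920-51583918, plus strand), a transmembrane collagen, had 37 UMIs in control and 208 UMIs in SM22-SmoM2 fibroblasts (2.62 and 16.7 CPM), a log2 ratio of 2.67 (2.16 to 3.22). Without the DP-like cells, which held 38.2% of the Col23a1 UMIs of their library, it was 1.99 (1.46 to 2.56). Col26a1 (chr5:136741759-136883209, minus strand), with its short helix, had 281 and 1193 UMIs (19.9 and 95.6 CPM), a log2 ratio of 2.26 (2.08 to 2.46) and, without DP-like cells, of 2.05 (1.86 to 2.24). Fibroblasts held 97.2% of its control and 97.6% of its SM22-SmoM2 UMIs, so it was a fibroblast gene in both libraries. Col25a1, another transmembrane collagen, had 55 and 14 UMIs (-1.80, -2.76 to -0.93). Sub-clusters 0 and 13, which each held 50 or more cells of either library, had smaller log2 ratios. They were 0.17 for Col23a1, 0.88 for Col26a1 and 0.41 for Col11a1, all short of 2-fold. Col23a1 had fewer UMIs there than the 50 needed for a call, and its direction differed between the 2. It was 2.47 (0.63 to 4.63) in sub-cluster 0, from 4 control and 9 SM22-SmoM2 UMIs. In sub-cluster 13 it was -1.29 (-3.04 to 0.14), from 23 and 5 UMIs.

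**Figure D2:**
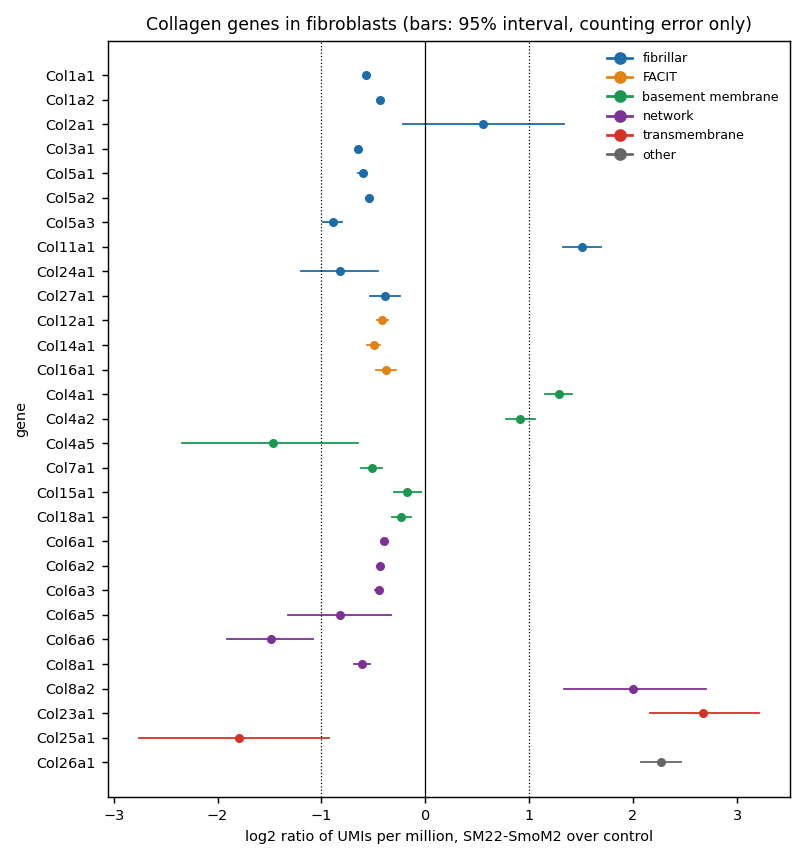
Log2 ratio of CPM in SM22-SmoM2 over control fibroblasts (horizontal axis) for the 29 collagen genes with at least 50 UMIs (vertical axis), coloured by group, with bars for the 95% counting interval and dotted lines at a 2-fold difference. Most points lie left of 0, and Col23a1, Col26a1, Col8a2, Col11a1 and Col4a1 lie past 2-fold on the right.

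The fibroblasts of the libraries were not the same mixture of cells. Of 1091 control fibroblasts, 289 lay in sub-cluster 0 (led by Crabp1, Igfbp2 and Prss35), 253 in sub-cluster 1 (Nov, Eln and Dlk1) and 227 in sub-cluster 13 (Mmp3, Igfbp2 and Mmp13). SM22-SmoM2 fibroblasts lay mostly in sub-clusters 2 (155 cells, Egfl6, Wif1 and Igfbp2), 3 (147 cells, Wif1, Egfl6 and Penk), 4 (224 cells, Penk, Mest and Cldn1) and 9 (204 cells, Areg, Penk and Mmp13), with 119 in sub-cluster 0 and 122 in sub-cluster 13. A sub-cluster mostly of 1 library may be that library and not a cell state. Within sub-cluster 0, 22 collagen genes could be compared between the libraries, with a median log2 ratio of -0.02, 1 higher (1.42% of 7331 genes) and 0 lower (2.71%). Within sub-cluster 13 there were 24, with a median of -0.03, 1 higher (1.41% of 6881 genes) and 2 lower (2.01%). The higher gene of sub-cluster 0 was Col11a1, with 28 UMIs in control and 32 in SM22-SmoM2 cells, where the interval of the log2 ratio was 0.72 to 2.28. Those of sub-cluster 13 were Col6a6, which was higher (1.58, 0.88 to 2.30), and Col4a1 and Col4a2, which were lower (-1.26 and -1.84). Over both of these sub-clusters the fibrillar total differed by -0.07 on the log2 scale. Past 2-fold 1 gene was higher (Col6a6) and 1 lower (Col25a1) in place of 5 and 3. The share of all genes called over both sub-clusters is not given, so these counts do not tell whether the change was particular to collagen. Col4a1 and Col4a2 changed sign there, to -0.42 and -0.59. The fibrillar level of these cells was thus close between the libraries. Sub-clusters 4 and 5, which also held cells of both libraries but few of control, differed more: collagen took 5.87% of UMIs in 35 control and 3.64% in 224 SM22-SmoM2 cells of sub-cluster 4, and 7.99% in 33 and 4.16% in 75 cells of sub-cluster 5.

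The collagen content differed widely between sub-clusters. Collagen took 9.11% and 8.58% of UMIs in control and SM22-SmoM2 cells of sub-cluster 0 and 9.15% and 8.85% in sub-cluster 13, but 2.31% in sub-cluster 2, 2.28% in sub-cluster 3 and 3.64% in the SM22-SmoM2 cells of sub-cluster 4. Ptch1 was detected in 10.9% and 15.6% of the SM22-SmoM2 cells of sub-clusters 0 and 13, and in 64.5%, 74.8% and 84.8% of those of sub-clusters 2, 3 and 4. Low collagen content was not found with Ptch1 alone, since 81 control cells of sub-cluster 11 held 3.56% collagen with Ptch1 in 1.23% of them. Over 17 classes of at least 30 cells, Col1a1 ranged from 2239 to 32491 CPM, Col7a1 from 4.22 to 386 CPM and Col12a1 from 14.6 to 1523 CPM. Col15a1 and Col8a1 were highest in 62 control cells of sub-cluster 6 (Thbs4, Cst6 and Trf), at 790 and 754 CPM. Col18a1 was highest in 35 control cells of sub-cluster 4 (956 CPM), Col14a1 in sub-cluster 11 (led by Fbln7, Eln and Angptl1, 698 CPM) and Col11a1 in sub-cluster 3 (171 CPM). These peaks lay in different sub-clusters, of which 3, 6 and 11 had at least 30 cells in 1 library only.

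**Figure D3:**
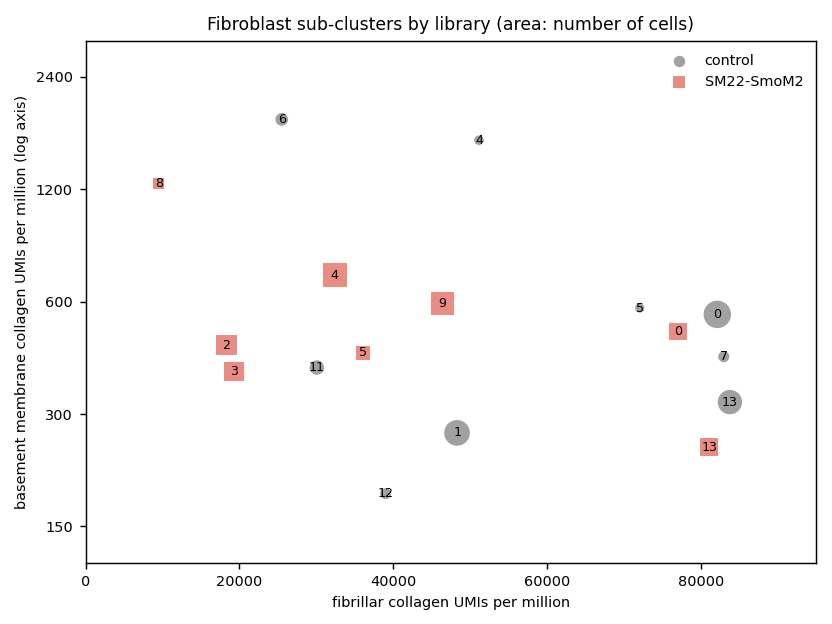
Summed level of fibrillar members (horizontal axis, CPM) and of basement membrane members (vertical axis, CPM on a log scale) in each fibroblast sub-cluster with at least 30 cells of a library, with the sub-cluster number in the symbol and the number of cells as its area. Sub-clusters 0 and 13 lie together at the right in both libraries (76994 to 83758 CPM fibrillar), and the SM22-SmoM2 sub-clusters 2, 3 and 8 lie at the left (9537 to 19296 CPM).

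Fibroblasts were then split within each library by whether at least 1 Ptch1 UMI was counted, which compares cells with and without a transcript of the Hh target and holds the library fixed. Ptch1 was detected in 9.90% of control (108 cells) and 58.3% of SM22-SmoM2 fibroblasts (640 cells). At an equal depth of 3000 UMIs per cell it was 4.12% and 30.8%, against 3.28% and 6.15% in endothelial cells, and the counting intervals of control fibroblasts (3.02% to 5.48%) and control endothelial cells (2.09% to 4.88%) overlapped. Median depth was 12888 UMIs with and 12459 without Ptch1 in control fibroblasts, and 11298 and 10218 in SM22-SmoM2 fibroblasts.

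In SM22-SmoM2 fibroblasts, cells with Ptch1 had less fibrillar collagen than cells without. Col1a1 was at 22472 CPM in 458 cells without and 11342 CPM in 640 cells with Ptch1 (log2 ratio -0.99), Col1a2 at 17896 and 9385 CPM (-0.93, -0.95 to -0.92) and Col3a1 at 17693 and 9633 CPM (-0.88, -0.89 to -0.86). Of 26 collagen genes compared, 6 were lower past 2-fold (1.99% of 10042 genes) and 1 was higher (3.50%), and the median was -0.73 against 0.13 over all genes. Past 1.5-fold, 15 were lower (5.32%) and 6 were higher (11.8%). The 6 were Col5a1 (-1.33), Col24a1 (-1.75), Col12a1 (-1.53), Col7a1 (-1.58), Col6a5 (-3.15, from 45 and 8 UMIs) and Col6a6 (-2.53, from 51 and 14 UMIs), and the 1 was Col26a1 (1.12, 0.92 to 1.32). With the collagen counts thinned to 3000 UMIs per cell, or with cells split by Gli1, 0 were higher, and the share of all genes there is not given. The core type VI chains differed less, with -0.52 for Col6a1, -0.61 for Col6a2 and -0.72 for Col6a3. Of the compared members, 8 of 9 fibrillar, 3 of 3 FACIT and 6 of 7 network genes had a log2 ratio under 0. The exceptions were Col11a1 (0.54), whose interval lay above 0, and Col8a2 (0.44), whose interval did not. The ratio of Col5a2 to Col5a1 UMIs was 1.78 (1.71 to 1.85) without and 2.57 (2.45 to 2.69) with Ptch1.

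In SM22-SmoM2 fibroblasts the largest step of the fibrillar level lay between cells with 0 and with 1 Ptch1 UMI. It was 60479 CPM in cells with 0 Ptch1 UMIs, 36415 CPM in 204 cells with 1, 29989 CPM in 271 cells with 2 or 3, and 29309 CPM in 165 cells with 4 or more. Col4a1 went the other way over the same cells, from 77.1 to 116, 141 and 200 CPM. These 4 classes held 14, 7, 14 and 11 DP-like cells and had median depths of 10218, 10785.5, 10395 and 13713 UMIs. In control fibroblasts the fibrillar level was 63434 CPM in 983 cells with 0, 62839 CPM in 71 cells with 1, and 53381 CPM in 30 cells with 2 or 3 Ptch1 UMIs, so control cells with 0 and with 1 were close.

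Over all fibroblasts of each library, Col4a1, Col4a2, Col15a1 and Col18a1 were higher in cells with Ptch1. In SM22-SmoM2 fibroblasts the log2 ratios were 0.98 (0.81 to 1.15) for Col4a1, 0.93 (0.73 to 1.13) for Col4a2, 0.85 (0.62 to 1.07) for Col15a1 and 0.93 (0.78 to 1.09) for Col18a1. In control fibroblasts they were 0.91 (0.62 to 1.19), 0.99 (0.70 to 1.27), 1.94 (1.75 to 2.13) and 1.35 (1.21 to 1.49). These are also the collagens of muscle and endothelial cells, and the markers of those cells moved with the split. The 8 muscle markers, all detected, summed to 137 and 59.8 CPM in control fibroblasts with and without Ptch1 and to 84.9 and 33.3 CPM in SM22-SmoM2 fibroblasts, and the 7 endothelial markers to 90.4 and 73.1 CPM and to 84.7 and 34.7 CPM. Muscle cells themselves had 10605 and 10216 CPM and endothelial cells 5419 and 4747 CPM of their markers. The part of these markers in the result was not tested. The direction did not hold in every sub-cluster. Within SM22-SmoM2 sub-cluster 2, Col4a1 and Col4a2 were lower with Ptch1 (-0.52 and -0.54), and in sub-cluster 9 they were higher (0.83 and 0.44).

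Control fibroblasts with Ptch1 did not show the low fibrillar level. Of 26 genes compared, 3 were higher past 2-fold, Col15a1, Col18a1 and Col26a1 (2.54% of 10260 genes), and 0 were lower (3.65%), while 7 were higher (8.93%) and 1 was lower (8.68%) past 1.5-fold, with a median of 0.12 against 0.03 over all genes. Col1a1 was at 23451 CPM without and 21251 CPM with Ptch1 (-0.14, -0.16 to -0.13), and Col3a1 at 20173 and 18794 CPM (-0.10, -0.12 to -0.08). Col26a1 had 216 UMIs without and 65 with Ptch1 (1.40, 0.97 to 1.80), so it was higher with Ptch1 in both libraries, as was Col11a1 at 22.2 and 43.5 CPM (0.97, 0.55 to 1.37). The control cells with and without Ptch1 were not spread alike over the sub-clusters. Ptch1 was counted in 27.4% of the 62 control cells of sub-cluster 6, which held 131 of the 281 control UMIs of Col26a1, 96 of the 345 of Col11a1 and 542 of the 1078 of Col15a1, and in 45.7% of the 35 control cells of sub-cluster 4, where Col18a1 was highest. No control sub-cluster held 50 cells with Ptch1, so the control split was not made within sub-clusters. The core type VI chains and Col16a1 had opposite signs in the libraries, for example 0.23 for Col6a1 in control and -0.52 in SM22-SmoM2 fibroblasts. Within SM22-SmoM2 sub-clusters 2 and 9 the network total, which includes type VI, differed by 0.04 and -0.22.

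**Figure D4:**
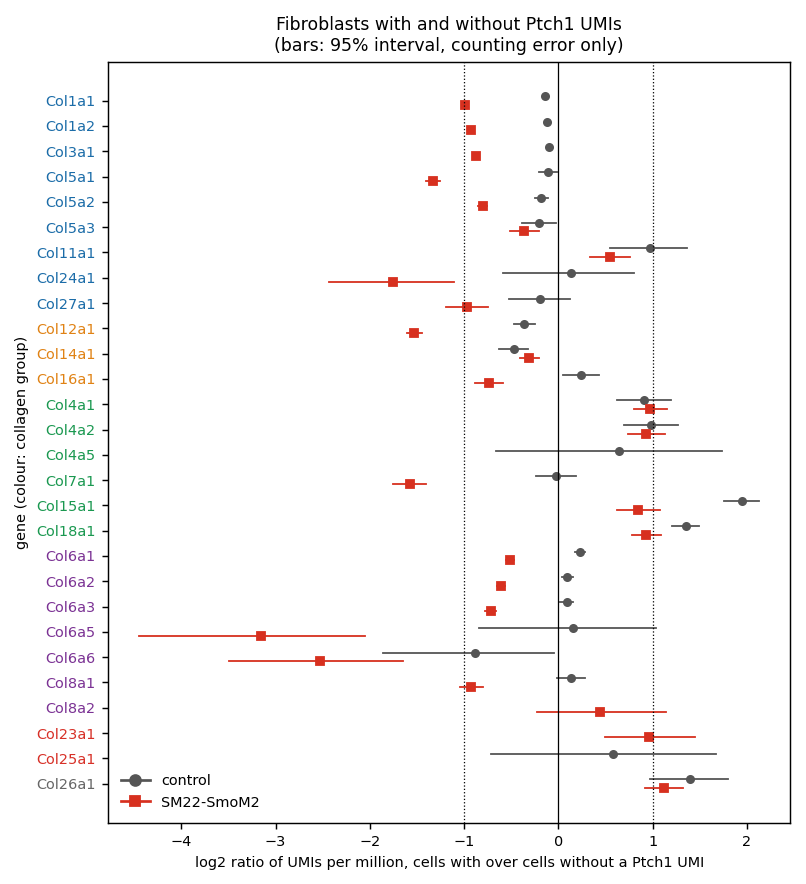
Log2 ratio of CPM in fibroblasts with over fibroblasts without a Ptch1 UMI (horizontal axis) for each collagen gene with at least 50 UMIs in the comparison (vertical axis, coloured by group), in control (grey circles) and SM22-SmoM2 (red squares), with 95% counting intervals and dotted lines at a 2-fold difference. Most fibrillar and network members lie nearer to 0 in control than in SM22-SmoM2, where they lie left of 0 (Col1a1 -0.14 and -0.99), while Col4a1 and Col4a2 lie right of 0 in both.

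Between the libraries, fibroblasts without Ptch1 were close in Col1a1 and differed more in Col3a1. Col1a1 was at 23451 CPM in control cells and 22472 CPM in SM22-SmoM2 cells without Ptch1 (-0.06, -0.07 to -0.05), and Col3a1 at 20173 and 17693 CPM. The Col3a1 to Col1a1 ratio was 0.860 (0.856 to 0.865) in control and 0.787 (0.780 to 0.794) in SM22-SmoM2 cells. Over all cells of sub-cluster 13 it was higher in SM22-SmoM2 (0.912) than in control (0.763), and in sub-cluster 0 it was close (0.716 and 0.723). The median of 28 collagen genes was -0.02 against -0.15 over all genes. Col8a2 (1.67), Col11a1 (1.28), Col23a1 (2.16) and Col26a1 (1.71) were nevertheless higher past 2-fold (3.21% of 10657 genes), and Col25a1 (-1.36) was lower (4.84%). In fibroblasts with Ptch1, Col1a1 was at 21251 and 11342 CPM (-0.91, -0.93 to -0.89), and the median of 24 collagen genes was -0.84 against -0.05. Of these, 6 were lower past 2-fold (4.41% of 9482 genes), Col5a1, Col24a1, Col7a1, Col15a1, Col18a1 and Col8a1, and 3 were higher (6.73%), Col8a2 (from 2 UMIs in control, 2.51, 0.59 to 5.59), Col23a1 and Col26a1. Col8a2, Col23a1 and Col26a1 were past 2-fold with and without a Ptch1 UMI. The 458 SM22-SmoM2 cells without Ptch1 included 14 DP-like cells, and Col23a1 was at 259 CPM over all 46 DP-like cells. Their part in these ratios was not tested. A low fibrillar level was also found without Ptch1, at 21641 CPM in the 55 SM22-SmoM2 cells of sub-cluster 2 that had no Ptch1 UMI.

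Cell by cell, SM22-SmoM2 fibroblasts were spread over low and high collagen shares. The median fibroblast held 7.03% collagen in control and 3.51% in SM22-SmoM2. Under 2% collagen lay 17 of the 1091 fibroblasts in control, against 275 of the 1098 in SM22-SmoM2. With Ptch1 the median was 6.32% in control and 2.79% in SM22-SmoM2 cells, and without Ptch1 it was 7.12% and 6.70%. Of the SM22-SmoM2 cells without Ptch1, 70 (15.3%) were still under 2%, against 16 (1.63%) of the control cells. Within SM22-SmoM2 sub-clusters that held at least 50 cells of both kinds, the fibrillar level with over without Ptch1 was -0.37 (-0.40 to -0.33) in sub-cluster 2 and -0.37 (-0.39 to -0.35) in sub-cluster 9, smaller than the -0.93 over all SM22-SmoM2 fibroblasts. Col4a1 was lower with Ptch1 in sub-cluster 2 (-0.52, -0.90 to -0.15) and higher in sub-cluster 9 (0.83, 0.48 to 1.18). The basement membrane total did the same, at -0.29 (-0.51 to -0.06) and 0.46 (0.30 to 0.62).

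**Figure D5:**
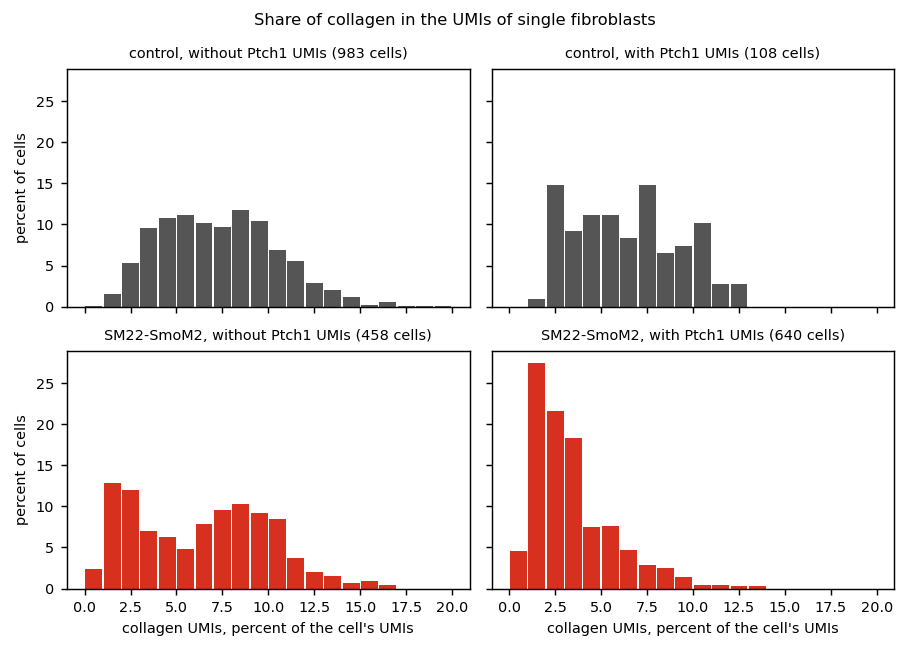
Percent of cells (vertical axes) by the collagen share of the UMIs of the cell (horizontal axes, percent) for control and SM22-SmoM2 fibroblasts without and with a Ptch1 UMI. Control cells are spread around medians of 7.12% and 6.32%, SM22-SmoM2 cells with Ptch1 crowd at the left around 2.79%, and SM22-SmoM2 cells without Ptch1 form both a low and a high group.

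The 46 DP-like cells had less fibrillar collagen than the other SM22-SmoM2 fibroblasts. Against the other SM22-SmoM2 fibroblasts, 9 of 23 collagen genes were lower past 2-fold (9.94% of 9782 genes) and 6 were higher (22.1%). The share of higher genes was thus near that of all genes. The median log2 ratio was -0.54, against 0.28 over all genes. Col1a1 was at 2239 CPM against 16000 CPM (-2.84, -2.95 to -2.73), Col3a1 at 3775 against 12988 CPM (-1.78, -1.87 to -1.70), Col12a1 at 41.5 against 457 CPM (-3.46, -4.37 to -2.69) and Col8a1 at 19.2 against 178 CPM (-3.22, -4.67 to -2.09). The Col3a1 to Col1a1 ratio was 1.69 (1.53 to 1.85), against 0.815 over all SM22-SmoM2 fibroblasts. The 6 higher genes were Col23a1 at 259 CPM (4.63, 4.21 to 5.04), Col26a1 at 613 CPM (2.90, 2.67 to 3.12), Col4a2 at 361 CPM (2.09, 1.79 to 2.37), Col4a1 at 444 CPM against 115 CPM, Col15a1 at 198 CPM (1.62) and Col11a1 at 163 CPM (1.28, 0.84 to 1.69). Sub-clusters 2 and 3 shared part of this, with Col1a1 at 6741 and 7423 CPM, Col26a1 at 217 and 139 CPM, Col4a1 at 167 and 112 CPM and Col11a1 at 94.8 and 171 CPM. Dermal papilla cells direct hair growth from within a basement membrane sheath. In the DP-like class basement membrane members made up 8.59% of collagen UMIs, at 1242 CPM. That level was not particular to the class, since control cells of sub-clusters 4 and 6 held 1624 and 1847 CPM. The share was taken over a low fibrillar total, 9537 CPM against 43699 CPM in the other SM22-SmoM2 fibroblasts. The DP-like cells had a median of 4530.5 UMIs against 11183.5 in the other fibroblasts. Their muscle markers summed to 361 CPM, of which Rgs5 alone gave 256 CPM, with 1 of 8 at 0. Whether those markers or the depth had a part in these ratios was not tested. Col6a5, Col6a6 and Col8a2 had 0 UMIs there, which at 313090 UMIs in all gives no direction.

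Most genes that build and bind collagen were also lower in SM22-SmoM2 than in control fibroblasts. Of 36 assembly genes (hydroxylases, chaperones, propeptide proteases and cross-linking enzymes), 33 could be compared in fibroblasts, 32 had a log2 ratio of SM22-SmoM2 over control under 0 and 1 above it, and the median was -0.54, against -0.06 over all genes. Past 2-fold, 5 were lower (4.89% of all genes) and 0 higher (5.02%). These were P4ha2 (-1.37, -1.46 to -1.28) and P4ha3 (-1.29, -1.44 to -1.15), chains of the prolyl hydroxylase that stabilises the helix, Loxl1 (-1.21, -1.27 to -1.16), which cross-links matrix, Pcolce2 (61 and 14 UMIs, -1.94), which enhances removal of the C-propeptide, and Adamts3 (40 and 12 UMIs, -1.56), which removes the N-propeptide. Of 10 receptor genes, 7 could be compared. Their log2 ratios were all under 0 with a median of -0.50, 0 of them past 2-fold in either direction, and the largest was that of Itga11 (-0.85, -1.06 to -0.64), the alpha chain of a collagen-binding integrin. In sub-clusters 0 and 13, 0 assembly or receptor genes were lower past 2-fold, in place of 5, and the share of all genes there is not given. Between SM22-SmoM2 fibroblasts with and without Ptch1, 29 of 30 assembly genes had a log2 ratio under 0 (median -0.39), against 34.4% of all genes. The 6 receptor genes were split, 3 above and 3 under 0 (median 0.07). In DP-like cells against the other SM22-SmoM2 fibroblasts, 14 of 30 assembly genes were lower past 2-fold (9.94% of 9782 genes) and 3 higher (22.1%). Of 6 receptor genes, 3 were lower and 2 higher.

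Promoter sequence is shown for Col3a1, the main fibrillar chain with the largest difference, and for Col11a1, the fibrillar member that went the other way. Both windows are from RefSeq (GRCm38.p6) and hold the 250 bases before the start site on the plus strand, with the matched motif in capitals.
Col3a1, chr1:45311288-45311537: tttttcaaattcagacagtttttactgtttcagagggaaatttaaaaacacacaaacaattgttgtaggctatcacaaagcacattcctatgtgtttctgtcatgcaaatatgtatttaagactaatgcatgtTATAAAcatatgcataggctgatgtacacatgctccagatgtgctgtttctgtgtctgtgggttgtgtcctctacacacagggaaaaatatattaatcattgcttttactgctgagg
Col11a1, chr3:114030290-114030539: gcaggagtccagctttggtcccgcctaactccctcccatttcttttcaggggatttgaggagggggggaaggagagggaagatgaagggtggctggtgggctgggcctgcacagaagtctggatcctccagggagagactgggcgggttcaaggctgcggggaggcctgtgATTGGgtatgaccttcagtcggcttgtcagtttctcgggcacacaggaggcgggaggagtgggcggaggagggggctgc
The Col3a1 window held the letters TATAAA 117 bases before the start site and was 35.2% G or C, and the Col11a1 window held the letters ATTGG, which read CCAAT on the other strand, 79 bases before it and was 62.4% G or C. Windows were found for 35 of the 44 members, 38 in all. The letters TATAAA on either strand were in 5 of the 38 and in 12.4% of all 32851 windows of the same length, and CCAAT in 13 of the 38 and in 33.8% of all. The letters GACCACCCA, the consensus of the Gli factors of Hh signaling, were in 0 of the 38 and in 0.225% of all windows, and their core CCACCCA was in 1, that of Col7a1, and in 8.11% of all. The core is part of the longer motif. These counts describe the windows only.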

How the data were processed

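Tomato+ wound dermis cells of 1 control and 1 SM22-SmoM2 library were captured with 10x Chromium v2 and counted by the authors with Cell Ranger against mm10. The authors deposited raw counts: each value is the whole number of UMIs of 1 gene in 1 cell. The Cell Ranger version and the annotation are not given in the sources used here. The barcode list of 737280 entries could not be tied to the cells, so shared barcodes were not counted.

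Cells needed 200 genes and at most 10% mitochondrial UMIs. K-means (K = 20, fibroblasts K = 15, 50 starts, 20 principal components of 2000 genes, scikit-learn 1.9.0) left out 97 collagen, assembly, receptor and Hh genes as well as mitochondrial and sex-linked genes. A name required 3 of its markers to reach 10 CPM and to exceed the median over clusters 1.5 times. Sub-clusters led by markers of another lineage (17 control and 2 SM22-SmoM2 cells) were left out by a rule set after the clusters were seen. DP-like cells were counted with fibroblasts. Scrublet, set to an expected rate of 5%, marked 6 of 2878 (0.21%) and 11 of 1802 (0.61%) barcodes. It cannot be taken to have worked in either library, and no marked barcode was removed in the reported values.

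UMIs were summed per class (scipy 1.17.1). Intervals are exact Poisson or binomial, and log2 ratios carry exact conditional intervals. A count of 0 was set to 3 UMIs, and such a gene was compared only where that bound gave a direction. A gene was called past 2-fold with at least 50 UMIs. No test between conditions was possible with 1 library each. The calculation was run on simulated pooled counts with Poisson error only. Variation between cells or sub-clusters was not simulated, so that check says nothing about it. The members, gene lists and comparisons were chosen with earlier results of these data known. Collagen genes with 50 UMIs in a cell type were named, and of the assembly and receptor genes the 4 with the largest ratios and all past 2-fold. Genes leading sub-clusters lie outside that rule and were named after their values were seen. Alternatives were mitochondrial filters, K = 12 and 30, Leiden clustering, Scrublet removal, other scalings, thinning to 3000 UMIs, means per cell, male or female cells alone, UMI minimums of 10 and 200, a 1.5-fold call, and for the split 2 Ptch1 UMIs or Gli1. Every column used belongs to 1 of the 2 libraries.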

Additional observations from a re-analysis of the deposited data

Results flagged for a closer look

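Control and SM22-SmoM2 fibroblasts moved in opposite directions with Ptch1 for 4 collagen genes, each with a counting interval on 1 side of 0 in both libraries. The log2 ratio of cells with over cells without a Ptch1 UMI was 0.23 in control and -0.52 in SM22-SmoM2 fibroblasts for Col6a1, 0.095 and -0.61 for Col6a2, 0.089 and -0.72 for Col6a3, and 0.24 and -0.74 for Col16a1. The first 3 are the core chains of type VI collagen and moved together. Within SM22-SmoM2 sub-clusters the network total, which includes them, differed little or less. It was 0.04 (-0.04 to 0.12) in sub-cluster 2 and -0.22 (-0.27 to -0.16) in sub-cluster 9. Each library is 1 sample, so the difference between the libraries was not tested. The control split rests on 108 cells with Ptch1, whose share at equal depth was close to that of endothelial cells.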

How the results depend on the processing

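No paired analysis was possible because each group is 1 library, and the replicate number 1 in both is only a name. Depth limits members under 50 UMIs, for which 2-fold differences could not be judged. Taking only the shared sub-clusters 0 and 13, in which both libraries had 50 cells or more, and leaving out sub-clusters with 1 marker of another lineage were alternatives chosen after seeing the data. TMM, median-of-ratios and collagen-free scaling moved the median of all genes by less than 0.1 (log2). The cause of the shifts listed here was not tested. Counts of called genes below are given without the share of all genes called under the same setting. They do not tell whether a shift was particular to the listed genes.

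In fibroblasts, 5 collagen genes higher past 2-fold became 3 after thinning and 1 in the shared sub-clusters. The 3 lower ones became 1 after thinning, 9 in female cells, 5 at 10 UMIs, 1 at 200 UMIs, 9 at 1.5-fold and 1 in the shared sub-clusters. Assembly and receptor genes went from 0 higher to 1 at 10 UMIs and 1 at 1.5-fold, and from 5 lower to 3 in male cells, 14 in female cells, 3 at 200 UMIs, 19 at 1.5-fold and 0 in the shared sub-clusters. The fibrillar total of -0.55 was -0.55 with a mitochondrial limit of 5%, -0.54 with K = 12, -0.55 without Scrublet doublets, -0.66 as a mean per cell, -0.66 after thinning, -0.59 without collagen UMIs in the total, -0.48 in male cells, -1.35 in female cells, -0.068 in the shared sub-clusters and -0.54 without sub-clusters holding 1 other marker. The basement membrane total of 0.10 turned to -0.033 as a mean per cell, -0.037 after thinning and -0.29 in the shared sub-clusters, and was 0.15 in male and 0.26 in female cells. The Col3a1 to Col1a1 difference of -0.08 was -0.055 as a mean per cell, -0.043 after thinning, -0.13 in male cells, -0.041 in female cells, -0.070 without sub-clusters holding 1 other marker, and 0.13 in the shared sub-clusters.

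The shared sub-clusters also turned the sign of 12 genes, to 0.0038 for Col1a2, -0.42 for Col4a1, -0.59 for Col4a2, 0.35 for Col4a5, 0.17 for Col5a1, 0.49 for Col5a3, 0.39 for Col6a5, 1.69 for Col6a6, 0.091 for Col8a1, 0.29 for Col12a1, 0.38 for Col14a1 and 0.098 for Col27a1. Female cells turned Col15a1 to 1.83 and Col18a1 to 0.98. Male cells turned Col2a1, whose interval included 0, from 0.55 to -2.36.

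For the Ptch1 split, the 3 higher in control became 5 with K = 12, 5 in male cells, 1 in female cells, 8 at 10 UMIs, 7 at 1.5-fold, 7 with Gli1 and 6 with classes set after thinning, and the 0 lower became 1 in male cells, 1 at 10 UMIs, 1 at 1.5-fold, 1 with 2 Ptch1 UMIs and 3 with Gli1. In SM22-SmoM2, 1 higher became 2 with K = 12, 0 after thinning, 4 in male cells, 3 at 10 UMIs, 6 at 1.5-fold, 5 with 2 Ptch1 UMIs and 0 with Gli1, and 6 lower became 3 at 200 UMIs, 15 at 1.5-fold and 3 with Gli1. The 5 members higher in endothelial cells became 3 after thinning and 3 in female cells, and the 6 higher in Schwann cells became 3 and 2.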
